A study of Homo sapiens with 6 samples.

Results

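The 9 genes of the MHC class I antigen presentation pathway described here are HLA-B, HLA-C, HLA-E, B2M, TAP1, TAP2, TAPBP, PSMB8 and PSMB9. They were followed in SW403 cells with and without knockdown of IRS2. They were chosen by gene symbol, and all 9 were among the 26490 symbols of the count table. SW403 is an established line of human colon adenocarcinoma, and IRS2 encodes an adaptor protein of the insulin and IGF1 receptors. RNA-seq libraries were made from 3 control cultures, whose genotype is labelled WT, and from 3 cultures labelled IRS2_knockdown. Both groups were grown for 24 h in DMEM with 10% fetal bovine serum and received no treatment. The column names call the control NS and the knockdown IRS2KO, and how IRS2 was lowered is not given in the sources used here. The labels number the cultures as biological replicates but do not say whether they came from separately made lines, so the p-values measure the spread between these cultures.

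MHC class I molecules show fragments of a cell's own proteins to cytotoxic T cells. Proteasomes cut proteins into peptides, and interferon-inducible subunits such as PSMB8 and PSMB9 can take the place of constitutive ones. The TAP1 and TAP2 transporter carries the peptides into the endoplasmic reticulum, where tapasin, encoded by TAPBP, helps to load them onto a class I heavy chain paired with beta-2-microglobulin. Interferons and NF-kB are known to act on the promoters of many of these genes, and tumours of the colon can lose parts of the pathway.

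Control libraries held 11816973 to 12585013 counts and knockdown libraries 14329348 to 18114656, so every knockdown library was the deeper. IRS2 had 408, 437 and 381 counts in control and 186, 210 and 216 in knockdown libraries, a log2 fold change of -1.39 ± 0.07 (SE). Over all 13832 tested genes, 38.5% passed the threshold of 0.05 on the adjusted p of edgeR's quasi-likelihood test, with 19.3% higher and 19.2% lower in knockdown. Of 14 immune cell markers, 1 passed the expression filter and none passed the test; CD3D and MS4A1 had no count, and PTPRC, which marks leukocytes, had 1 count in 6 libraries. The list summed to 2.79 to 4.57 CPM in control and 3.64 to 4.10 in knockdown libraries. The list of 11 stromal and endothelial markers summed to 11.9 to 31.8 CPM in control and 8.91 to 11.5 CPM in knockdown libraries. PECAM1 and CDH5, which define endothelium, had no count, and of 4 tested genes COL1A1 and COL3A1 fell. COL1A1 had 15.2, 5.70 and 5.60 CPM in control and 4.29, 3.67 and 4.04 CPM in knockdown libraries, and its call was lost in DESeq2 (adjusted p 0.0705). The call of COL3A1 was lost without control replicate 1 (edgeR adjusted p 0.179) or knockdown replicate 2 (0.0766). The collagen gene COL1A2 had 86, 11 and 3 counts in control, so control replicate 1 stood apart. Without that library, 6 of the 9 class I genes were called higher and 1 lower, against 7 and 1 with it. Of 12 colon epithelial markers, 6 passed the expression filter, among them EPCAM, KRT8 and CDX2, while KRT20, CDX1 and CEACAM5 had no count. CDH1 had at most 5 counts in a library, and GPA33 and LGALS4 at most 4. The list summed to 2536 to 2637 CPM in control and 2364 to 2457 CPM in knockdown libraries. Most of that sum came from KRT8 and KRT18, with control means of 1096 and 1121 CPM. KRT19, an epithelial keratin, fell from 228 ± 10.9 to 164 ± 8.93 CPM and EPCAM from 39.8 ± 1.33 to 34.3 ± 1.54 CPM (SD, n = 3 each; edgeR adjusted p 4.35e-08 and 0.0058). CDX2, an intestinal transcription factor, rose from 77.0 ± 2.08 to 84.6 ± 2.72 CPM (SD, n = 3 each; edgeR adjusted p 0.0148), a call lost with library size alone (0.0502), in DESeq2 (0.0552) and without control replicate 1 (0.0668) or knockdown replicate 2 (0.0644). The part of these marker changes in the class I results was not tested.

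Of the 9 class I genes, 7 rose, TAP1 fell and B2M did not pass the test. All 9 passed the expression filter. These counts stand beside the 19.3% and 19.2% of all tested genes called higher and lower. The median log2 fold change of the 9 was 0.32, against -0.00391 over all tested genes. The changes were modest in size, and HLA-B, with the largest, exceeded 91.9% of all tested genes in absolute log2 fold change. In 8 of the 9 genes the 3 knockdown values did not overlap the 3 control values, a pattern seen in 47.6% of all tested genes.

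**Figure D1:**
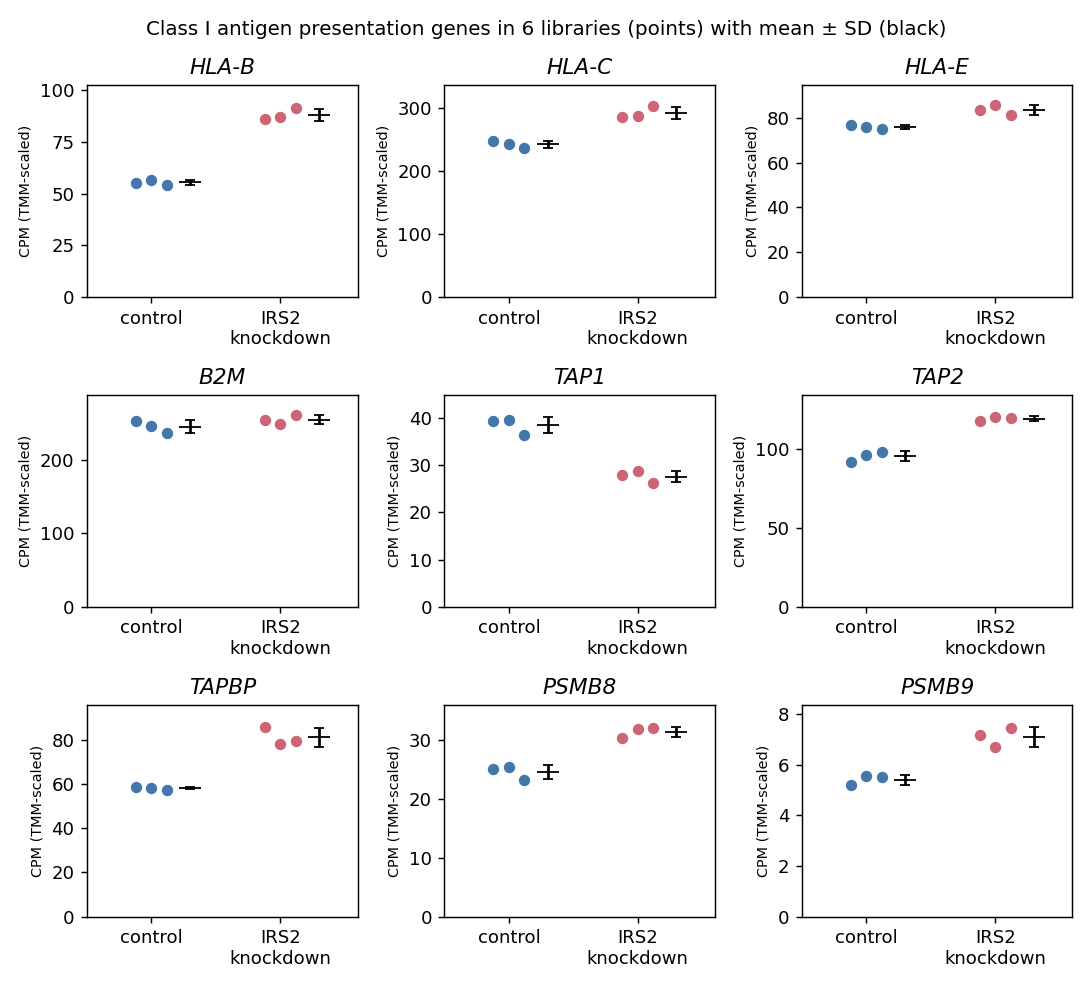
Expression of each class I gene (CPM scaled by TMM factors, vertical axes from 0) in the 3 control (blue) and 3 IRS2 knockdown (red) libraries, with mean ± SD in black. The groups are apart in every panel but that of B2M, and only TAP1 is lower in knockdown.

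The promoters of HLA-B and HLA-C are shown first, because these classical heavy chain genes differed in their change. Those of TAP1 and PSMB9 follow, which lie head to head and moved in opposite directions. That of TAPBP, which rose, comes last and holds a pair of interferon response matches. Such a pair is also in TAP1, which fell, and in B2M, which did not pass the test and is not shown. The promoters are the 250 bases before the annotated start from RefSeq (GRCh38.p14), on the gene's own strand. For TAP1, which has another annotated start, the start nearer to PSMB9 was used. HLA-B was read from chr6:31357180-31357429, HLA-C from chr6:31272093-31272342, TAP1 from chr6:32853705-32853954 and TAPBP from chr6:33314079-33314328, all on the minus strand. PSMB9 was read from chr6:32853942-32854191 on the plus strand. Capitals mark the class I NF-kB site (GGGGA directly followed by TTCCC) in HLA-B, the aligned bases in HLA-C, and the interferon response core (GAAA, any 2 bases, GAAA), on either strand, in TAP1 and TAPBP.
HLA-B: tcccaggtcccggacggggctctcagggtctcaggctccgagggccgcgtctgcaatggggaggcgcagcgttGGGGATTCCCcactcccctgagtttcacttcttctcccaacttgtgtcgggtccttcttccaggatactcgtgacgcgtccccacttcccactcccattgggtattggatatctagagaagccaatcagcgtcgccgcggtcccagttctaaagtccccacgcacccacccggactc
HLA-C: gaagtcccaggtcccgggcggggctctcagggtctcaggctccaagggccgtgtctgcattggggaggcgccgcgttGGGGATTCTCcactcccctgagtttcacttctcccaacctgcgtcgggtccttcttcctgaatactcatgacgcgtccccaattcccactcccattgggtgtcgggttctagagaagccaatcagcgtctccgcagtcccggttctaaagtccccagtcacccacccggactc
TAP1: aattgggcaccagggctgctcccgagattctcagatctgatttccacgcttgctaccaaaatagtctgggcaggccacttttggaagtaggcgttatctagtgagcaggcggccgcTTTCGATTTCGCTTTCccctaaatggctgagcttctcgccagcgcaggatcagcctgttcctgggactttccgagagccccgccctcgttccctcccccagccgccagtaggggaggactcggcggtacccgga
PSMB9: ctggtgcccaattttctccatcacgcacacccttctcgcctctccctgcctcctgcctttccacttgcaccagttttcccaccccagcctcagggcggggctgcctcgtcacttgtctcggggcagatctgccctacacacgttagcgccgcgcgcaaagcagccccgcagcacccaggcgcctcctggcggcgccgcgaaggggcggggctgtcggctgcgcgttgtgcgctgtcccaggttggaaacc
TAPBP: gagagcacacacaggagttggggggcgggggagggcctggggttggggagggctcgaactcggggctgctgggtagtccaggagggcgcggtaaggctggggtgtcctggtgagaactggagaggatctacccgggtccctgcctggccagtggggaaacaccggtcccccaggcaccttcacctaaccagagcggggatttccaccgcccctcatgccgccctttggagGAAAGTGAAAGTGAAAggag

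The class I heavy chain genes encode the chain that holds the peptide. HLA-B, one of the classical and highly polymorphic ones, was at 55.4, 56.6 and 54.2 CPM in control and at 86.1, 87.0 and 91.4 CPM in knockdown libraries. Every knockdown value was above every control value, and HLA-B rose 1.59-fold (log2 fold change 0.67 ± 0.04 SE, edgeR adjusted p 1.07e-09). HLA-C, another classical heavy chain and a ligand of natural killer cell receptors, was at 248, 243 and 236 CPM in control and 286, 287 and 303 CPM in knockdown. Its groups also stood apart, by a smaller fold of 1.21 (log2 fold change 0.27 ± 0.03 SE, edgeR adjusted p 3.46e-06). HLA-E, a conserved heavy chain recognised by the natural killer receptor NKG2A, was at 76.7, 75.8 and 75.1 CPM in control and 83.3, 85.5 and 81.2 CPM in knockdown. That rise was the smallest of the 7, at 1.1-fold (log2 fold change 0.14 ± 0.04 SE, edgeR adjusted p 0.0144). The HLA-E call was lost without knockdown replicate 2 (adjusted p 0.0792), with library size alone (0.0539), in DESeq2 (0.0590) and in counts thinned to one depth (0.0696).

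The ratio of HLA-B to HLA-C counts, chosen after the values were seen, was 0.223, 0.234 and 0.230 in control and 0.301, 0.303 and 0.302 in knockdown libraries. It was 1.32-fold higher in knockdown with no overlap. An exact two-sided permutation test gave p = 0.1, the smallest that 3 against 3 can give, and 0.117 after adjustment over the 7 ratios computed. Reads of HLA-B and HLA-C can align to more than one class I gene, and the SW403 alleles can differ from the reference, so the split of counts among them is uncertain.

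B2M, which encodes the light chain that pairs with these heavy chains, did not pass the test. It was at 254, 247 and 236 CPM in control and 254, 250 and 261 CPM in knockdown libraries. The groups overlapped, and the log2 fold change was 0.06 ± 0.03 (SE; edgeR adjusted p 0.219). The summed counts of HLA-B, HLA-C and HLA-E per B2M count were 1.5, 1.52 and 1.55 in control and 1.79, 1.84 and 1.82 in knockdown. This ratio of heavy chain to light chain reads was 1.19-fold higher in knockdown without overlap (exact two-sided permutation p = 0.1, adjusted 0.117). It is a ratio of reads and not of molecules, since the genes differ in length.

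The 2 chains of the peptide transporter moved apart. TAP1 was at 39.4, 39.5 and 36.5 CPM in control and 27.9, 28.7 and 26.3 CPM in knockdown libraries. It was the only one of the 9 genes to fall, by 0.48 on the log2 scale (SE 0.06, edgeR adjusted p 3.77e-06), or 1.39-fold. TAP2 was at 92.0, 96.1 and 98.6 CPM in control and 118, 121 and 120 CPM in knockdown. All knockdown values of TAP2 were above its control values, a 1.25-fold rise (log2 fold change 0.32 ± 0.04 SE, edgeR adjusted p 2.52e-06). TAP1 counts per TAP2 count were 0.428, 0.411 and 0.370 in control and 0.237, 0.238 and 0.219 in knockdown. This ratio, chosen after the values were seen, was 1.74-fold lower in knockdown without overlap (exact two-sided permutation p = 0.1, adjusted 0.117). The fall of TAP1 passed the threshold in all 16 alternative fits, with log2 fold changes from -0.51 to -0.44.

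TAPBP encodes tapasin, which bridges the transporter and the empty class I molecule and edits the peptides that stay bound. It was at 58.6, 58.2 and 57.4 CPM in control and 85.7, 77.9 and 79.3 CPM in knockdown libraries. The lowest knockdown value was above the highest control value by far more than the control libraries differed. TAPBP rose 1.39-fold (log2 fold change 0.48 ± 0.05 SE, edgeR adjusted p 1.86e-07), the largest rise of the 9 after that of HLA-B.

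PSMB8 and PSMB9 encode catalytic subunits of the immunoproteasome, which change the cleavage preference of the particle. PSMB8 was at 25.1, 25.4 and 23.1 CPM in control and 30.3, 31.8 and 31.99 CPM in knockdown libraries. The groups did not overlap, and PSMB8 rose 1.28-fold (log2 fold change 0.36 ± 0.06 SE, edgeR adjusted p 0.00017). PSMB9 had the fewest counts of the 9 genes, 66, 70 and 66 in control and 102, 113 and 133 in knockdown libraries. Scaled to depth these were 5.19, 5.55 and 5.51 CPM against 7.17, 6.69 and 7.46 CPM, again without overlap. PSMB9 rose 1.31-fold (log2 fold change 0.39 ± 0.13 SE, edgeR adjusted p 0.0224). Its call was lost without control replicate 1 (adjusted p 0.0758), knockdown replicate 1 (0.0517) or knockdown replicate 3 (0.0691), in DESeq2 (0.111) and in thinned counts (0.0683).

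Each immunoproteasome subunit was set against the constitutive one it replaces. PSMB8 counts per PSMB5 count were 0.170, 0.182 and 0.177 in control and 0.237, 0.227 and 0.234 in knockdown, 1.32-fold higher. PSMB9 per PSMB6 was 0.0397, 0.0427 and 0.0437 in control and 0.0533, 0.0493 and 0.0531 in knockdown, 1.24-fold higher. Neither ratio overlapped between groups (exact two-sided permutation p = 0.1 for each, adjusted 0.117). PSMB10 per PSMB7, the third such pair, was 0.129, 0.132 and 0.134 in control and 0.130, 0.147 and 0.143 in knockdown, and those groups overlapped (exact two-sided permutation p = 0.3, adjusted 0.3). PSMB5, PSMB6 and PSMB7 had edgeR adjusted p-values of 0.468, 0.0649 and 0.328. With the trend of expression with transcript length removed, PSMB6 passed, at a log2 fold change of 0.10 (edgeR adjusted p 0.0180).

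**Figure D2:**
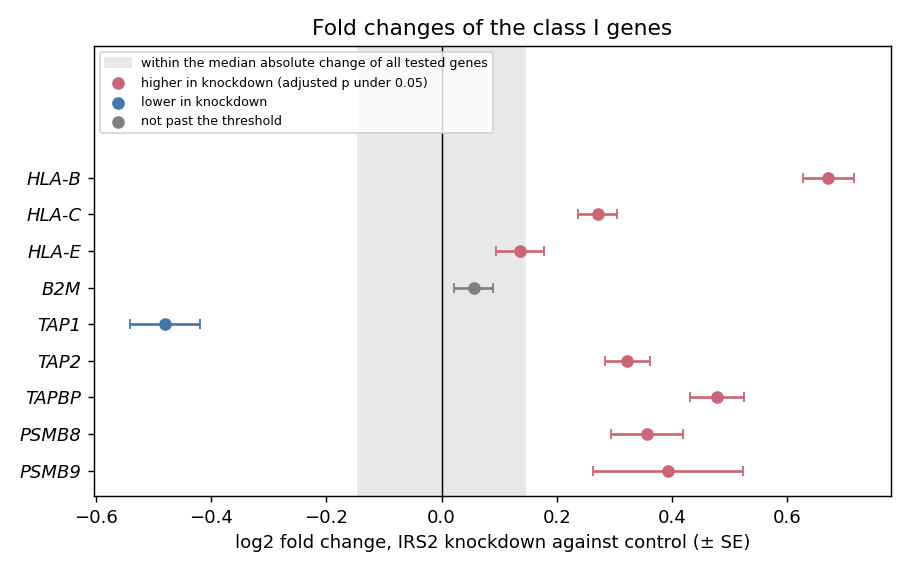
Log2 fold change (± SE) of each class I gene between IRS2 knockdown and control, with the median absolute change of all tested genes as a grey band. HLA-B (0.67) is farthest to the right, TAP1 (-0.48) alone lies left of 0, and HLA-E and B2M lie inside the band.

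**Figure D3:**
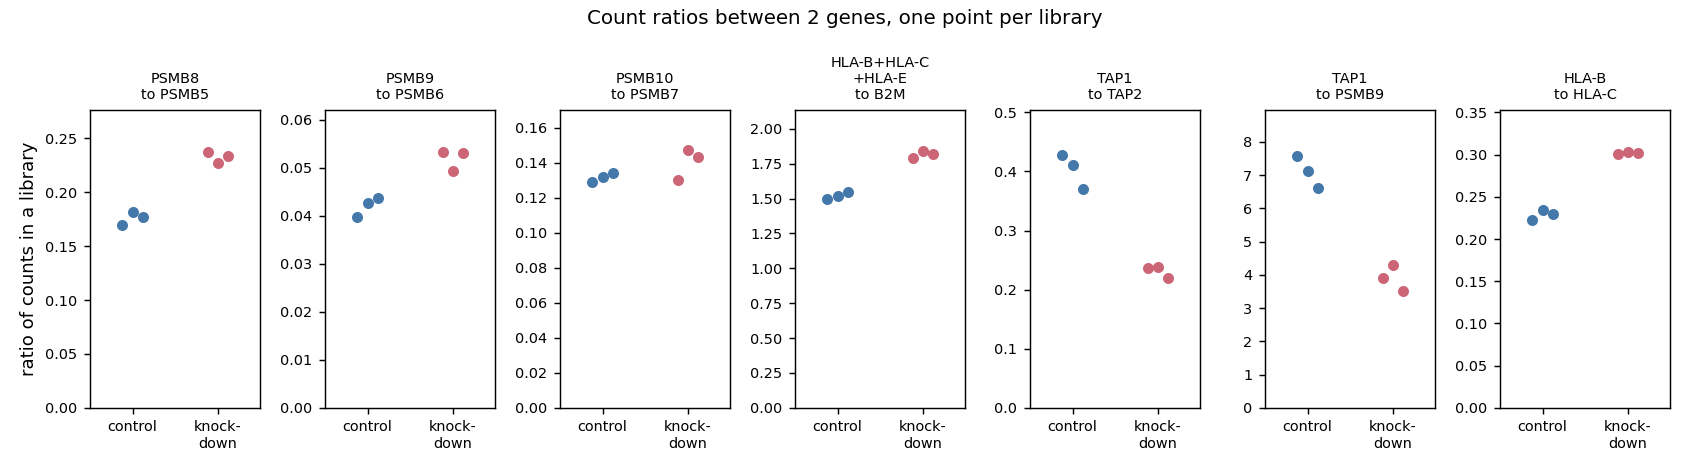
Ratios of counts between 2 genes in each library, control in blue and knockdown in red, vertical axes from 0. The groups are apart in 6 of the 7 ratios and overlap for PSMB10 to PSMB7.

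Expressed per kilobase of annotated exon, the order of the genes in control was HLA-C (96.6 ± 2.43 CPM per kilobase), B2M (78.6 ± 2.79), HLA-E (25.96 ± 0.268), HLA-B (11.98 ± 0.264), TAP2 (9.23 ± 0.321), TAPBP (8.73 ± 0.0906), TAP1 (8.12 ± 0.361), PSMB8 (7.05 ± 0.347) and PSMB9 (1.62 ± 0.0591; SD, n = 3 each). No neighbours in that order overlapped over the 3 libraries. In knockdown TAPBP (12.2 ± 0.621) stood above TAP2 (11.5 ± 0.147) and PSMB8 (9.02 ± 0.266) above TAP1 (5.83 ± 0.262; SD, n = 3 each). The order depended on the length used. With the canonical transcript, a length added after the values were seen, B2M came first in control (260.3 ± 9.25), then HLA-C (157 ± 3.96) and HLA-B (36.1 ± 0.793; SD, n = 3 each), and TAP2 and TAPBP overlapped. With the longest transcript, HLA-B overlapped TAP2 and TAPBP overlapped TAP1 in control, and TAPBP overlapped TAP2 in knockdown. PSMB9 was lowest under each of the 3 lengths.

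Except for B2M, on chromosome 15 (GRCh37, 45003556 to 45011049), the genes lie in the major histocompatibility complex on chromosome 6, from HLA-E at 30457286 to the end of TAPBP at 33282061 (GRCh37, GENCODE 44 lifted to that build). Of 87 other tested genes in that interval, 11 were higher and 12 lower, 26.4% in all, against 38.5% of all tested genes. Their median log2 fold change was -0.0249, against 0.32 for the 9 class I genes. The 87 include read-through genes counted beside their parts, such as LY6G6F-LY6G6D and LY6G6D, both higher with a log2 fold change of 0.45. TAP2, PSMB8, TAP1 and PSMB9 lie next to each other within the interval, so the fall of TAP1 lay among 3 rises. The largest falls in the interval were those of HLA-DPA1 and HLA-DOA, which encode MHC class II chains.

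**Figure D4:**
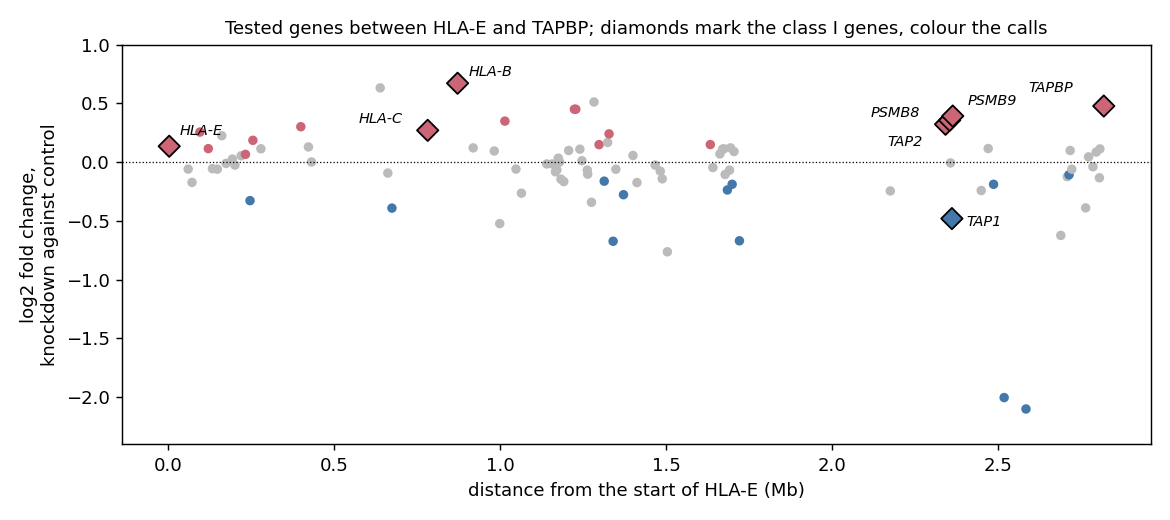
Log2 fold change of tested genes between HLA-E and TAPBP against distance from the start of HLA-E (Mb), with the 8 class I genes of chromosome 6 as diamonds and colours for higher (red), lower (blue) and not past the threshold (grey). TAP1 is the one blue diamond, and the 2 lowest points are HLA-DPA1 and HLA-DOA.

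TAP1 and PSMB9 are transcribed away from each other from starts 488 bases apart in RefSeq, a layout long described as a shared bidirectional promoter. RefSeq also gives TAP1 another start, farther from PSMB9. TAP1 counts per PSMB9 count, a ratio chosen after the values were seen, were 7.59, 7.13 and 6.62 in control and 3.89, 4.29 and 3.52 in knockdown libraries. The ratio was 1.83-fold lower in knockdown without overlap (exact two-sided permutation p = 0.1, adjusted 0.117). The annotation also places an antisense RNA gene, PSMB8-AS1, over parts of TAP1, PSMB8 and PSMB9, and exons of PSMB8 and PSMB9 overlap by 139 bases. The strand setting of the counting is not given, so reads from these stretches cannot be told apart. Exons of HLA-B, TAP2 and TAPBP also overlap those of other annotated genes, by up to 1421, 2023 and 1397 bases. For HLA-B and TAP2 the longest overlap is with a gene on the same strand, which no strand setting would separate. PSMB8-AS1 itself had 182 counts over the 6 libraries and a log2 fold change of -0.00643 ± 0.22 (SE; edgeR adjusted p 0.987).

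RefSeq promoter windows of 300 bases, from 250 before to 50 after the start, were found for 8 of the 9 genes, in 10 windows, and HLA-E had none. The interferon response core (GAAA, any 2 bases, GAAA), searched on both strands, was in 5 of the 10 windows and in 3.57% of all 35116 windows. Of the genes that held it, PSMB8, TAP2 and TAPBP rose, TAP1 fell and B2M did not pass the test. TAP1, TAPBP and B2M each held a pair of overlapping matches, which in TAP1 began 134 and 128 bases before the start and in TAPBP 20 and 14 bases before it. PSMB9, HLA-B and HLA-C held no match of this core in their windows. Other forms of the interferon response element were not searched, so those windows may hold some. The TAP1 pair lies between the starts of TAP1 and PSMB9, but beyond the reach of the PSMB9 window. The windows of the other starts of TAP1 and PSMB8 held no match of the interferon response core. The gamma-activated core TTCNNNGAA was in 2 of 10 windows against 7.66% of all, the Y box core CCAAT in 5 of 10 against 34.61%, and the CRE TGACGTCA in 0 of 10 against 1.85%. The exact letters of the class I NF-kB site were in 0.08% of all windows and, among the 10, in that of HLA-B alone, 177 bases before the start. Other forms of the NF-kB site were not searched, so the other windows may hold some. Similar letters can be read in the printed promoters of TAP1 (gggactttcc), which fell, and TAPBP (ggggatttcc), which rose. Their part in the changes was not tested. In the aligned HLA-C stretch the 10 letters differed by C9T, with positions counted from 1 at the 5′ end and the HLA-B base first. These are reference sequences, from which the SW403 alleles can differ, and a part of C9T in the changes was not tested. The HLA-B and HLA-C windows were identical in 269 of 304 aligned columns (88.5%).

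Other parts of the pathway were read from lists of genes written from general knowledge. In the list of class I and class I-like heavy chains, 4 of 13 tested genes rose and 2 fell, beside the 19.3% and 19.2% of all tested genes, and the median log2 fold change was 0.12. MICB, a stress-induced ligand of the receptor NKG2D, rose from 21.2 ± 1.01 to 27.0 ± 0.405 CPM (SD, n = 3 each; edgeR adjusted p 0.000326). ULBP2, another NKG2D ligand, fell from 4.43 ± 0.227 to 3.12 ± 0.372 CPM (SD, n = 3 each; edgeR adjusted p 0.0293). Its call was lost when control replicate 2 (0.0789), control replicate 3 (0.0796), knockdown replicate 1 (0.0924) or knockdown replicate 2 (0.0780) was left out. Rises were also found in PROCR and in HLA-F, the latter named after its values were seen (edgeR adjusted p 0.0013 and 0.0058). FCGRT, the neonatal Fc receptor, fell 1.2-fold with overlapping groups (edgeR adjusted p 0.0468), and its call held only without control replicate 3 among the fits that left out a library (0.0574 to 0.212 in the other 5).

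Of 20 genes for peptide loading and trimming, 10 rose and BCAP31 fell, beside 19.3% and 19.2% of all tested genes. The median log2 fold change of the list was 0.11. ERAP1, the aminopeptidase that trims peptides in the endoplasmic reticulum, rose 1.35-fold, from 33.2, 31.8 and 33.7 CPM in control to 44.2, 44.8 and 44.6 CPM in knockdown (edgeR adjusted p 2.42e-06). NPEPPS, a cytosolic aminopeptidase, rose 1.48-fold (edgeR adjusted p 2.44e-09). Among the chaperones of class I folding, CANX rose 1.16-fold (edgeR adjusted p 7.07e-06), while CALR had a log2 fold change of -0.04 (edgeR adjusted p 0.35). The fall of BCAP31 was small, at -0.09, and was lost in each of the 5 fits that left out control replicate 1 (0.0605), 2 (0.0936) or 3 (0.0782) or knockdown replicate 1 (0.0877) or 2 (0.185).

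The proteasome list had 3 rises and 1 fall among 14 genes, beside 19.3% and 19.2% of all tested genes. The median log2 fold change of the list was 0.03. The rises were in activators of the particle. PSME1, a subunit of the interferon-inducible activator PA28, rose 1.26-fold (edgeR adjusted p 2.2e-05), and its partner PSME2 rose 1.12-fold (edgeR adjusted p 0.0124). PSME4, the activator PA200, rose 1.22-fold (edgeR adjusted p 7.11e-06), and PSMB3, a structural subunit, fell 1.19-fold (edgeR adjusted p 0.000105). The PSME2 call was lost without control replicate 2 (0.0928), control replicate 3 (0.0523) or knockdown replicate 2 (0.0514). PSMB10, the third immunoproteasome subunit, had 20.8 ± 0.152 CPM in control and 22.8 ± 1.86 CPM in knockdown libraries (SD, n = 3 each; edgeR adjusted p 0.140), and it passed without knockdown replicate 1 (0.0387).

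Among 36 tested regulators of class I transcription, 14 rose and 3 fell, where 19.3% of all tested genes were called higher and 19.2% lower, and the median log2 fold change was 0.10. NLRC5, the transactivator of class I genes, had 65, 61 and 65 counts in control and 98, 145 and 146 in knockdown libraries, and rose 1.55-fold after scaling (log2 fold change 0.63 ± 0.14 SE, edgeR adjusted p 0.0011). IRF1, an activator of class I promoters, rose 1.18-fold with overlapping groups (edgeR adjusted p 0.0135), and its call was lost without control replicate 3 (0.0625) or knockdown replicate 2 (0.106). The 2 largest rises of this list were in NF-kB subunits. RELB went from 14.6 ± 0.707 to 25.8 ± 2.30 CPM and NFKB2 from 27.4 ± 1.45 to 46.1 ± 1.34 CPM (SD, n = 3 each; edgeR adjusted p 1.89e-07 and 7.41e-09). NFKB1 and the NF-kB inhibitor gene NFKBIA, named after their values were seen, rose 1.20-fold and 1.43-fold (edgeR adjusted p 0.000104 and 0.000212). IFNGR2, a chain of the interferon gamma receptor, fell 1.36-fold (edgeR adjusted p 4.17e-05), and NFYA, a subunit of the factor that binds the Y box, fell 1.22-fold (edgeR adjusted p 0.000689). Of the other interferon receptor chains listed, named after their values were seen, IFNAR2 rose 1.36-fold and IFNAR1 1.09-fold (edgeR adjusted p 3.13e-05 and 0.0271). IFNGR1 did not pass the test (edgeR adjusted p 0.716). IRF8, a factor of immune cells, had 16, 30 and 21 counts in control and 10, 17 and 14 in knockdown libraries, a fall (edgeR adjusted p 0.00814) that was lost without control replicate 2 (0.0772).

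Of 30 tested interferon-stimulated genes, 9 rose and 5 fell, beside 19.3% and 19.2% of all tested genes. Their median log2 fold change was 0.12, and 5 of the 49 in the table, CXCL9, IDO1, IFI44, RSAD2 and XAF1, had no count in any library. PARP14 rose 1.67-fold from 21.2 ± 0.641 to 35.2 ± 1.17 CPM (SD, n = 3 each; edgeR adjusted p 2.6e-08), and IFI6 rose 1.54-fold (edgeR adjusted p 0.000462). HERC5, the ligase for the ubiquitin-like protein ISG15, fell 3.56-fold from 4.68 ± 0.872 to 1.29 ± 0.294 CPM (SD, n = 3 each; edgeR adjusted p 2.91e-06), and USP18, which removes ISG15, fell 3.15-fold (edgeR adjusted p 5.49e-05). The other falls were in IFITM2 and, named after their values were seen, OAS2 and HERC6 (edgeR adjusted p 0.0113 and 0.0468). The OAS2 call was lost without control replicate 3 (0.0536) or knockdown replicate 2 (0.0612), and that of HERC6 in each of the 6 fits that left out a library (0.0540 to 0.177).

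The list of MHC class II, the system of professional antigen-presenting cells, includes lysosomal proteases. Of 14 genes, 7 passed the expression filter, of which 2 rose and 2 fell, beside 19.3% and 19.2% of all tested genes. The median log2 fold change of the 7 was -0.24. HLA-DPA1 had 23, 22 and 28 counts in control and 7, 9 and 6 in knockdown libraries (log2 fold change -2.10 ± 0.32 SE, edgeR adjusted p 3.56e-05). HLA-DOA had 22, 21 and 19 counts against 5, 4 and 11 (log2 fold change -2.00 ± 0.35 SE, edgeR adjusted p 0.000161). CTSS, a lysosomal protease that trims the class II invariant chain, had 12, 11 and 2 counts against 50, 76 and 84 (log2 fold change 2.66 ± 0.31 SE, edgeR adjusted p 1.54e-06). LGMN, another lysosomal protease, rose 1.17-fold from 48.0 to 56.0 CPM (edgeR adjusted p 0.000939), while the other 6 tested genes had at most 4.83 CPM in any library. The invariant chain gene CD74 had at most 6 counts in a library.

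**Figure D5:**
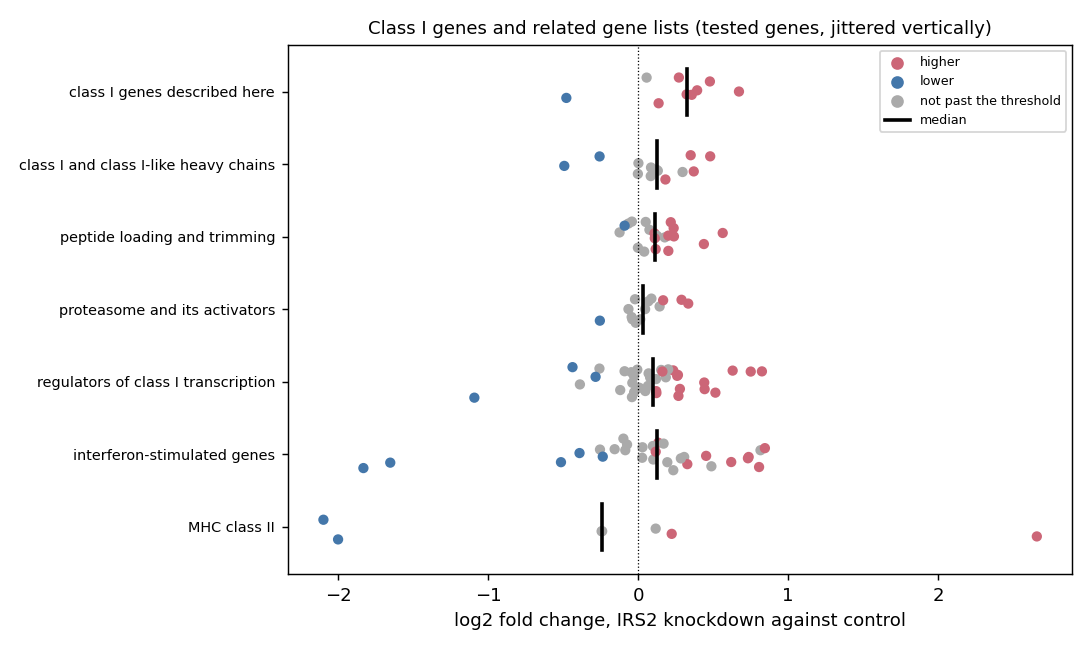
Log2 fold changes of the tested genes of each list, red where higher, blue where lower and grey where not past the threshold, with list medians as black bars. The median of the 9 class I genes is 0.32 and that of the class II list -0.24.

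The profile of HLA-B, the class I gene with the smallest p, was compared with those of 10448 other genes that averaged 100 counts or more. Likeness was the root-mean-square difference in log2 CPM over the 6 libraries after each gene was centred on its own mean. The nearest were LIMK1 (0.0199), a kinase of actin regulators, CDC25B (0.0282), a cell cycle phosphatase, GNAO1 (0.0348), a G protein subunit, TGFBR2 (0.0382), a TGF-beta receptor, and IL4R (0.0392), the interleukin 4 receptor. All 6 genes share the same libraries, and a rise of about this size is enough to bring a gene near HLA-B on this measure.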

How the data were processed

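Per the labels, libraries were made from 1000 ng of total RNA with an Illumina kit and PCR. The submitters' processing notes name STAR 2.6.1a, Salmon, DESeq2 and the hg19 build, with no roles. The authors deposited whole-number read counts per gene symbol, and a table of the same counts divided by a constant per library, which was not used here. The annotation, strand setting and filters are not given in the sources used here, and every column of counts was used.

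Counts were tested with edgeR 4.0.16 (R 4.3.3): TMM factors, filterByExpr, the quasi-likelihood F-test, no term besides group, Benjamini-Hochberg adjustment over all 13832 tested genes and a threshold of 0.05. CPM values are counts relative to the TMM-scaled library size, and marker list sums are CPM of the total count. Standard errors were derived from the log2 fold change and F. Fold changes are knockdown over control. The model was tested on simulated counts. Counting error sets the precision of genes with few counts, and reads without molecular identifiers are not independent molecules.

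The 9 genes and the lists were chosen with earlier results of these data known, so no list was given a test. Besides the 9 genes, those named are IRS2, PSMB10, PSMB5, PSMB6, PSMB7, NLRC5, IRF1, CALR and ERAP1, up to 3 genes per list and direction with the smallest p, and the 5 profiles nearest to the gene with the smallest p. Some genes that the rule would name are not reported here. The rule also named the marker genes CDX2, KRT19, EPCAM, COL1A1 and COL3A1. Other marker genes in the account of the libraries, list members with no or few counts, and PSMB8-AS1 fall outside it. Those were chosen after their values were seen. Alternatives were other scalings, filters and tools (DESeq2 1.42.0, limma 3.58.1), thinned counts, removal of the length trend, the replicate number as a block and leaving out each library.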

Additional observations from a re-analysis of the deposited data

How the results depend on the processing

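All 9 class I genes kept their direction in each of 16 alternative fits, and HLA-B, HLA-C, TAP1, TAP2, TAPBP and PSMB8 stayed past the threshold in all of them. B2M passed in none (log2 fold change 0.02 to 0.08). HLA-E did not pass with library size alone (0.10), in DESeq2 (0.14), in thinned counts (0.10) or at an adjusted p of 0.01 (0.14). PSMB9 did not pass in DESeq2 (0.39), in thinned counts (0.34) or at 0.01 (0.39). Leaving out each library gave 0.12 to 0.16 for HLA-E and 0.35 to 0.44 for PSMB9, and some of these fits also lost the call. In all, HLA-E passed in 12 and PSMB9 in 11 of the 16 alternative fits. The number of class I genes called higher was 5 in DESeq2 and in thinned counts. With 10 added to each count, the log2 difference of PSMB9 to PSMB6 was 0.23 against 0.31. The cause of these changes was not tested. Of 925 values for the other genes followed singly, 858 kept direction and side of the threshold. PSMB8-AS1, near 0, changed sign without the low-count filter (log2 fold change 0.00544), with the length trend removed (0.000876) and in fits that left out a library (-0.10 to 0.11).

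The replicate numbers are shared by both groups, but the labels do not say that they pair cultures. Deviations of same-numbered libraries had correlations of 0.045, -0.011 and -0.098. With the replicate number as a block, 2455 genes were higher and 2407 lower, against 2676 and 2653, and the calls of the 9 class I genes were the same. Low counts limit the precision for PSMB9, with 66 to 133 counts in a library.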
